A study of Homo sapiens with 6 samples.

Results

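The part of the data described here is a set of 8 genes of the synapse, namely the neurexins NRXN2 and NRXN3, the neuroligins NLGN1, NLGN2 and NLGN3, the synaptotagmins SYT1 and SYT4, and CNTNAP2. They were chosen by symbol among 38606 human genes, by no rule on their measured values but with earlier results of these data known. They were followed in 49204 human nuclei, of which 5961 were neuron-like. Single-nucleus RNA was counted in teratomas, tumours holding tissues of all germ layers, that grew after H1 human embryonic stem cells in matrigel were injected into the flank of immunodeficient NSG mice. Tumours from wild-type H1 cells (WT), from cells with LNCPRESS1, a long non-coding RNA, knocked out (KO), and from a LNCPRESS1 line labelled ΔATG (DATG), gave 2 libraries each. All lines share the H1 background and the same kind of mouse host. The labels do not give the sequence change in the KO or DATG line, the number of clones, the age of the tumours, or whether the libraries of a group came from separate tumours, so p-values measure only the spread between these libraries.

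Neurexins are adhesion proteins of the presynaptic membrane, and neuroligins are partners that bind them from the postsynaptic side. Each neurexin gene has an outer promoter for the long alpha form and an inner promoter for the short beta form. CNTNAP2 (CASPR2) belongs to the wider neurexin superfamily and gathers potassium channels along the axon. SYT1 is the calcium sensor that triggers fast release of transmitter vesicles, while SYT4 is a synaptotagmin of dense-core and postsynaptic vesicles. NLGN1 is best known at excitatory synapses, NLGN2 at inhibitory synapses, and NLGN3 at both.

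The libraries held from 35785812 to 47574535 unique molecular identifiers (UMIs, counted RNA molecules), of which 20912354 to 33448104 fell in the human nuclei kept. There were 5254 and 10932 human nuclei in WT, 9224 and 7376 in KO, with 10829 and 5589 in DATG (replicates 1 and 2), with medians of 2441 to 3846 UMIs. Any pair of libraries shared 5 to 32 cell barcodes, at most 0.3578% of the smaller library. The libraries of the DATG group differed from each other in several of the genes below. Barcodes with both human and mouse RNA, which were left out, made up 35.5% of the barcodes of DATG replicate 2 against 4.75% to 13.2% in the other libraries, and the part of this in its values was not tested. Mitochondrial RNA was 0.495% and 0.553% of human UMIs in DATG against 0.0805% to 0.179% in the other libraries. Levels are given in CPM, the UMIs of a gene scaled by the UMIs of all human genes in the nuclei named, and values after ± are SD.

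Of 28 human clusters 4 were called neuron-like, since 11 to 14 of 14 fixed neuron markers were at least 2-fold above the other clusters. They held 234 and 803 nuclei in WT, 1775 and 1061 in KO, with 1885 and 203 in DATG. As a share of human nuclei that was 4.45% and 7.35% in WT, 19.2% and 14.4% in KO, with 17.4% and 3.63% in DATG. Both KO shares lay above both WT shares, and the DATG pair spanned the range. A further cluster, led by the neurogenic factors NEUROD4 and NHLH1, carried 12 of 14 neuron markers high but none among its leading genes. The naming rule, which also weighs leading genes from the other lists, left it unnamed, and it is given apart. At a finer clustering (resolution 2) a cluster with NEUROD4 and NHLH1 among its leading genes was called neuron-like, with 14 of 14 markers high.

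All 8 genes were detected, but only some were mainly neuronal. NRXN3 stood at 3347 ± 1273 CPM in neuron-like nuclei (n = 6 libraries), followed by 1230 ± 326 in the NEUROD4/NHLH1 cluster, 1145 ± 402 in Schwann or neural crest-like nuclei and 703 ± 155 in neural progenitor-like nuclei. The NEUROD4/NHLH1 and Schwann-like levels did not differ beyond their spread. The lowest levels of NRXN3 were 96.0 ± 91.9 in endothelial-like and 68.8 ± 39.0 in blood or immune-like nuclei. NRXN3 in neuron-like nuclei was 4.97 to 8.23 times its level in all other human nuclei in 5 libraries and 12.8 times in WT replicate 2, and a median of 54.6% of its UMIs came from neuron-like nuclei. The spread over libraries in neuron-like nuclei, from 1721 to 5375 CPM, is taken up again with the neuronal types.

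SYT1 stood at 1969 ± 543 CPM in neuron-like nuclei and 1275 ± 242 in the NEUROD4/NHLH1 cluster. It was next highest in ciliated or ependymal-like nuclei, at 920 ± 210, ahead of progenitor-like (529 ± 164) and pigment-like nuclei (515 ± 168), which did not differ beyond their spread. Schwann or neural crest-like nuclei, high for NRXN3, had the lowest SYT1 level of all classes, at 152 ± 50.6. With each nucleus thinned to 1000 UMIs, SYT1 was seen in 68.9% of neuron-like nuclei, 46.7% of ciliated-like nuclei and 13.8% of endothelial-like nuclei. Unthinned these shares were 87.6%, 71.1% and 31.9%, at median depths of 2890, 3200 and 3944 UMIs. The endothelial-like share is given as a background, on the assumption that this type lacks the gene. It was not the lowest: gut epithelium-like nuclei stood at 9.2% for SYT1 after thinning. By the same measure NRXN3 was seen in 56.7% of neuron-like and 4.52% of endothelial-like nuclei after thinning (68.0% and 12.7% unthinned). Human SYT1 UMIs were also found in mouse nuclei, from 8 in 87 nuclei of DATG replicate 1 to 64 in 324 nuclei of KO replicate 2. The part of such stray RNA in the low levels outside neuron-like nuclei was not tested.

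CNTNAP2 was at 2531 ± 551 CPM in neuron-like nuclei, 956 ± 362 in the NEUROD4/NHLH1 cluster and 836 ± 467 in cardiac or smooth muscle-like nuclei, the latter pair overlapping. Progenitor-like nuclei held only 178 ± 41.8. The ratio of CNTNAP2 in neuron-like nuclei to all others was 4.90 to 11.8 in 5 libraries and 26.8 in DATG replicate 2. NRXN2 was much lower in CPM, at 69.6 ± 10.3 in neuron-like, 35.5 ± 11.8 in NEUROD4/NHLH1 and 23.9 ± 3.9 in progenitor-like nuclei, with a ratio of 3.69 to 6.81 in 5 libraries and 11.3 in DATG replicate 2. SYT4 reached 67.8 ± 79.5 CPM in neuron-like nuclei, an average carried by DATG replicate 2. Next came the NEUROD4/NHLH1 cluster at 41.9 ± 45.2 and a shallow cluster led by globin and heat shock genes at 40.2 ± 11. Choroid plexus-like nuclei stood at 35.1 ± 24.6, and the libraries of these classes overlapped.

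The neuroligins were spread more widely. NLGN1 was at 1605 ± 264 CPM in neuron-like nuclei, but also at 1397 ± 232 in choroid plexus-like, 1383 ± 239 in cardiac or smooth muscle-like, 1278 ± 109 in progenitor-like and 1139 ± 387 in mesenchyme-like nuclei. These neighbours did not differ beyond their spread, and the low end was 244 ± 177 in endothelial-like nuclei. Only 18.1% of NLGN1 UMIs (median over libraries) came from neuron-like nuclei. NLGN2 was not raised in neurons: its level in neuron-like nuclei, 26.2 ± 0.9 CPM, was 0.81 to 1.1 times that outside. Progenitor-like nuclei (37.2 ± 6.7) ranked first for NLGN2, and blood or immune-like nuclei last, at a mean of 5.83. NLGN3, the lowest of the 8 in neuron-like nuclei in CPM, was at 17.7 ± 9.1 in Schwann or neural crest-like, 16.8 ± 4.8 in neuron-like and 14.1 ± 2.9 in progenitor-like nuclei, which overlapped.

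**Figure D1:**
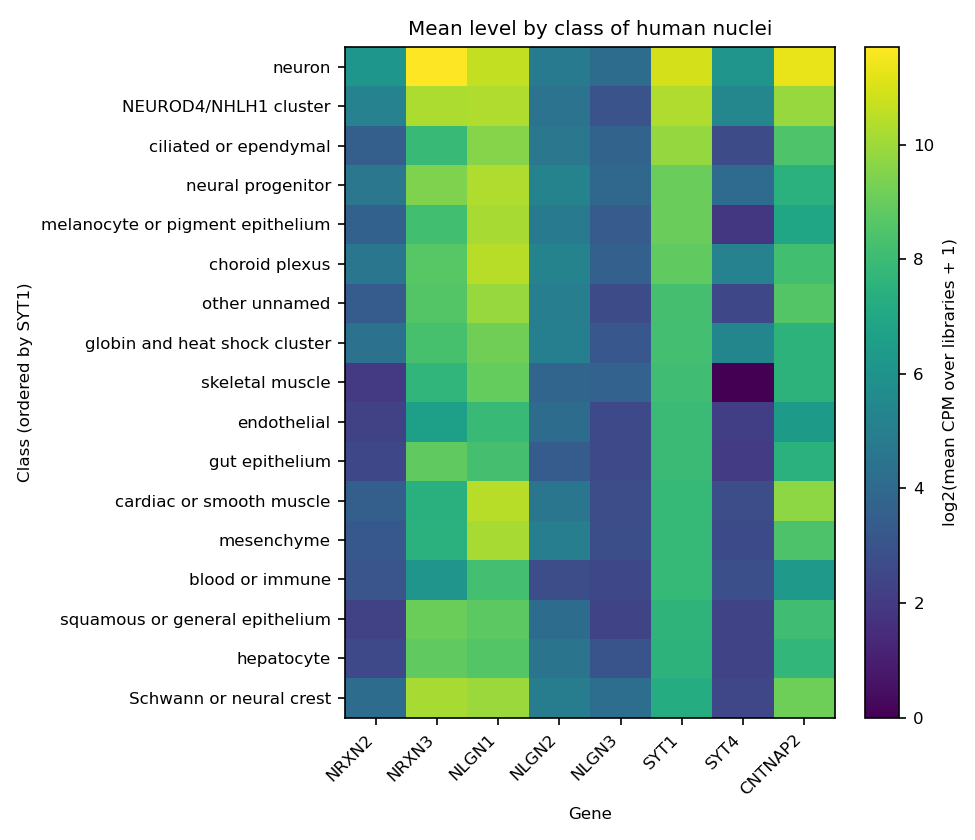
Mean level of each gene (columns) in each class of human nuclei (rows, ordered by SYT1), as log2(mean CPM over libraries + 1). NRXN3, SYT1 and CNTNAP2 are brightest in the neuron row, NLGN1 is bright in many rows, and NLGN2 and NLGN3 are highest in the progenitor and Schwann rows.

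The spans of the 8 genes differ widely, and how intronic reads were counted is not stated in the labels or headers. In GENCODE 29 on GRCh38 all 8 are protein-coding. CNTNAP2 spans chr7:146116002-148420998 on the plus strand, NRXN3 chr14:78170373-79868290 (plus), NLGN1 chr3:173396284-174286644 (plus) and SYT1 chr12:78863993-79452008 (plus). The short genes are NRXN2 at chr11:64606174-64723188 (minus), NLGN3 at chrX:71144831-71171201 (plus), NLGN2 at chr17:7404874-7419860 (plus) and SYT4 at chr18:43267878-43277650 (minus). Per 100 kb of gene span, the median level in neuron-like nuclei was 386 CPM for SYT4, 320 for SYT1, 201 for NRXN3, 177 for NLGN1, 176 for NLGN2, 104 for CNTNAP2, 61.5 for NLGN3 and 57.5 for NRXN2. On this scale CNTNAP2 moved from second to sixth among the 8, and SYT4 from sixth to first.

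The windows of 250 bases before the starts that the RefSeq table gives for NRXN3, SYT1 and CNTNAP2 are shown, because these 3 genes had the highest levels in neuron-like nuclei and because the starts of NRXN3 differ in kind. NRXN2 has no entry in that table. The SYT1 and CNTNAP2 windows lie inside the GENCODE spans given above, whose starts come before the RefSeq starts. The windows are on GRCh38.p14, all on the plus strand, with capitals at each match to a searched motif.
NRXN3 outer start, chr14:78170123-78170372: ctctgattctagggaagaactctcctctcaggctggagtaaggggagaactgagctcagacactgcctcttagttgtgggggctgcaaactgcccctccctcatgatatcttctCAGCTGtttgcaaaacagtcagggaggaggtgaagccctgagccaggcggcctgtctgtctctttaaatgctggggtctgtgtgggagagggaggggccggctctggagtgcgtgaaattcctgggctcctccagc
NRXN3 middle start, chr14:78403469-78403718: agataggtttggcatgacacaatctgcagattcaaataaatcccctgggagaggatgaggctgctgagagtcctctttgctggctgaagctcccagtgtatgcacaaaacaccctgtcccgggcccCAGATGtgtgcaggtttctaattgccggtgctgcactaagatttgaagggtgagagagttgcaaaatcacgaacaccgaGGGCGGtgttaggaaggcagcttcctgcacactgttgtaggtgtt
NRXN3 inner start, chr14:79279130-79279379: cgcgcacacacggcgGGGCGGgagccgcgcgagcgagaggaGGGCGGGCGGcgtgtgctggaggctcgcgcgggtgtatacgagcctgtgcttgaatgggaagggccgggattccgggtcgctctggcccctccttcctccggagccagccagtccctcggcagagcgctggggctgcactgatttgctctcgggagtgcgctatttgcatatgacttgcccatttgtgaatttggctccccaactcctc
SYT1, chr12:78864524-78864773: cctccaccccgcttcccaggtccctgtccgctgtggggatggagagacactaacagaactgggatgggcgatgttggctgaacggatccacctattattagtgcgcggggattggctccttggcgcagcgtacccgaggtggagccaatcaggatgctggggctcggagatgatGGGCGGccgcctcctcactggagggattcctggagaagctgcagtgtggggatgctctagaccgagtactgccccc
CNTNAP2, chr7:146116551-146116800: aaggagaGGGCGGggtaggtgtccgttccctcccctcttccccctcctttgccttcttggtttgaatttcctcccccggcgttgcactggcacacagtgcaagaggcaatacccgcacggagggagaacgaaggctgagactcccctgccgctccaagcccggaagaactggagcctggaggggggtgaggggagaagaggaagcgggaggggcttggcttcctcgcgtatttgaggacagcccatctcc
The motifs searched, on both strands, were the cAMP response element TGACGTCA, the E-boxes CAGCTG and CAGATG, the GC box GGGCGG and TATAAA. The outer NRXN3 window has CAGCTG, 56.8% GC and 3 CpG. The middle one has CAGATG and a GC box, 51.2% GC and 5 CpG, whereas the inner window has 3 GC boxes, 2 of which overlap, 66.4% GC and 24 CpG. SYT1 and CNTNAP2 have a GC box each, with 13 and 12 CpG. Among 35116 promoter windows of this length, 14% hold CAGCTG, 12.2% CAGATG, 42.6% GGGCGG, 10.7% TATAAA and 1.65% TGACGTCA. These matches describe letters in the windows only, and the 3' libraries do not tell the starts of NRXN3 apart.

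Neuronal types differed most for NRXN3. Neuron-like nuclei were split into 15 sub-clusters, 13 of which had at least 20 nuclei in 2 or more libraries. The sub-cluster called glycinergic or spinal inhibitory-like (SLC6A5, PAX2 and PAX8; 771 nuclei) had NRXN3 at 15040 CPM in WT replicate 2, 11360 and 12350 in KO replicates 1 and 2, and 7844 in DATG replicate 1. A GABAergic-like sub-cluster led by DLX6-AS1 and NKX2-1 (562 nuclei) had 6211 in WT replicate 2, 12750 and 14330 in KO and 9096 in DATG replicate 1. A further GABAergic-like sub-cluster, with PAX6 and SIX3 among its leading genes (572 nuclei), had 6284, 6740, 7521 and 6121 in the same order. The means of 11650 ± 2974, 10600 ± 3653 and 6666 ± 627 (n = 4 libraries) stood in this order, the libraries of the second sub-cluster overlapping with those of both others, while those of the first lay above those of the third. These 3 inhibitory sub-clusters were the highest of the 13.

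At the other end, an unnamed sub-cluster with the noradrenaline transporter gene SLC6A2 and HAND2-AS1 among its leading genes (126 nuclei), with CHAT at 34.6 CPM and TH at 20.3, had NRXN3 at 91.8 CPM in WT replicate 2, 121 in KO replicate 2 and 87.8 in DATG replicate 1. The highest mean was 116 times the lowest. The same ratio over these 13 sub-clusters was 14.4 for SYT4, 8.56 for CNTNAP2, 8.29 for NLGN1, 5.71 for NRXN2, 4.31 for SYT1, 3.93 for NLGN3 and 2.43 for NLGN2. Some lowest means rest on few UMIs: 7, 20 and 15 per library for NRXN3, and 2, 8, 0 and 2 for SYT4. For NRXN2 and NLGN3 they rest on at most 9 and 2 UMIs per library. The next lowest NRXN3 mean was 484.5 CPM. With 1 library left out the ratio moved most for SYT4, to 10.3 without DATG replicate 2 and 23.5 without KO replicate 1, for NLGN1, to 13.5 without KO replicate 2, for NLGN2, to 3.67 without KO replicate 2, and for NLGN3, to 5.80 without KO replicate 2 and 6.11 without DATG replicate 1. The 8 genes were not among those used for clustering, but sub-clusters come from the same nuclei, so these differences carry no test.

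SYT1 separated the inhibitory types. The NKX2-1 GABAergic-like sub-cluster stood at 3910 CPM in WT replicate 2, 5594 and 6933 in KO and 2816 in DATG replicate 1, a mean of 4813 ± 1817. The PAX6 GABAergic-like sub-cluster stood at 3685 ± 331, with the ranges overlapping. The glycinergic or spinal inhibitory-like sub-cluster, highest for NRXN3, had only 1177 ± 268 and did not overlap with either. A sub-cluster led by SLC24A4, LMX1B and HOXC genes (955 nuclei, unnamed) had a like level, at 1117 ± 153.

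CNTNAP2 ran the other way in the GABAergic-like nuclei. It stood at 841 CPM in WT replicate 2, 448 and 594 in KO and 879 in DATG replicate 1 in the NKX2-1 sub-cluster, a mean of 690 ± 205 and the lowest of the 13. The PAX6 sub-cluster had 1648 ± 354 and the glycinergic or spinal inhibitory-like one 2442 ± 604. The SLC6A2 and HAND2-AS1 sub-cluster, lowest for NRXN3, was highest for CNTNAP2, at 3356 in WT replicate 2, 7171 in KO replicate 2 and 7208 in DATG replicate 1. An unnamed sub-cluster led by KITLG and TCF7L2, with the vesicular glutamate transporter gene SLC17A6 at 195 CPM, was at 5074 in WT replicate 1 and 5568 in DATG replicate 1, within that range.

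NLGN1 was low in the glutamatergic-like sub-cluster led by the sensory neuron channel SCN10A (348 nuclei, with 6 of 14 glutamatergic markers high, among them TLX3 and POU4F1). It was at 150 CPM in WT replicate 2, 145 in KO replicate 1, 620 in KO replicate 2 (20 nuclei) and 170 in DATG replicate 1. In a sub-cluster led by the hypothalamic factors SIM1 and OTP (431 nuclei), NLGN1 was at 2250 ± 417, among the higher means of the 13, and its libraries did not overlap with those of the SCN10A sub-cluster. SLC17A6 stood at 244 CPM in the SIM1 sub-cluster and 194 in the SCN10A one, so low NLGN1 did not go with SLC17A6 in general. The SIM1 sub-cluster and others with SLC17A6 at like levels, such as the LMX1B one at 191 CPM, were left unnamed. The glutamatergic-like name thus covers only some of the nuclei with SLC17A6. The SCN10A sub-cluster also had the lowest NLGN2 mean, 13.2 ± 6.16 CPM, although its ranges overlapped with others. NLGN3 was highest, at 31.2 ± 11.1, in a sub-cluster led by the cortical factors TBR1 and EMX2 (602 nuclei). NRXN2 was highest, at 85.6 ± 16.1, in the LMX1B sub-cluster and lowest, at 15.0 ± 3.91, in an unnamed sub-cluster led by LRRC53 and CDH19. The highest means of NLGN3 and NRXN2 overlapped with those of other sub-clusters.

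**Figure D2:**
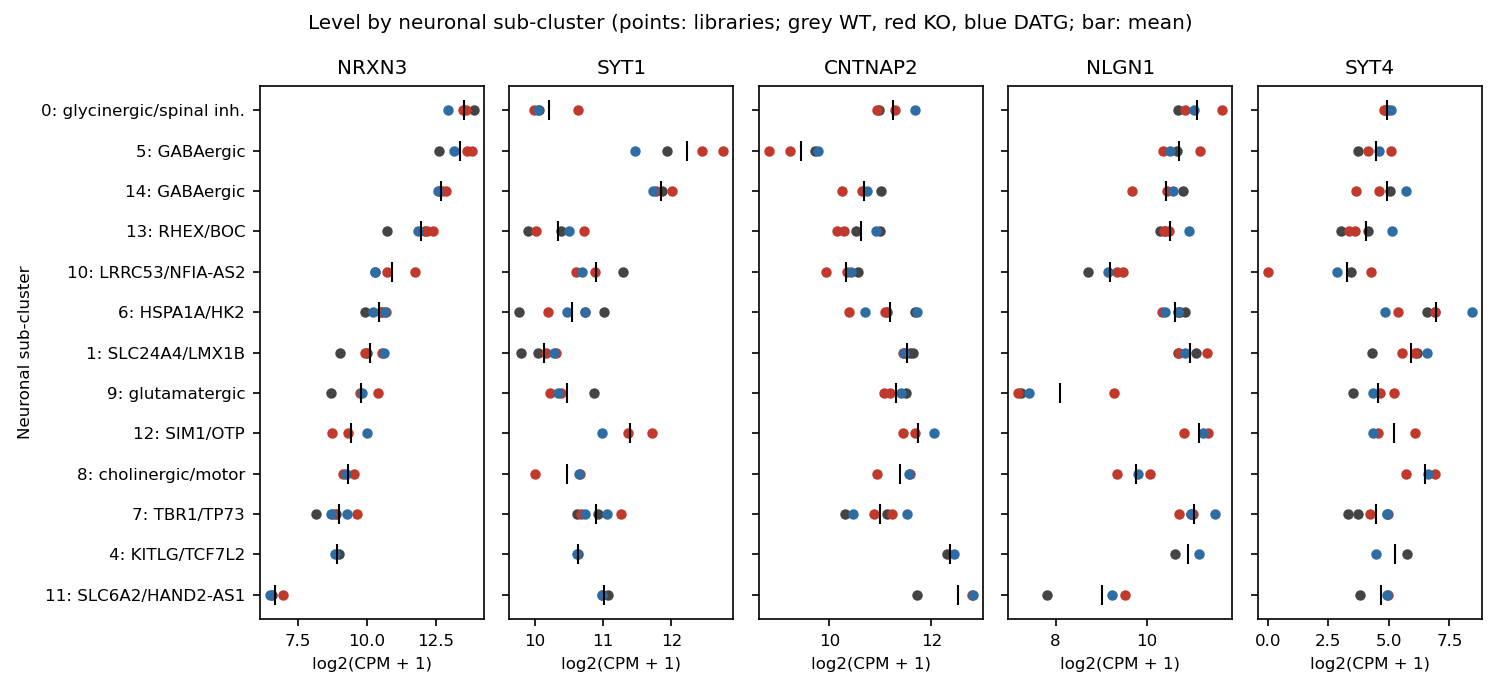
Level, as log2(CPM + 1), of 5 of the genes in 13 neuronal sub-clusters (rows, ordered by NRXN3 and named by the type they are like or by leading genes), with a point for each library that had at least 20 nuclei, coloured by group, and a bar at the mean. NRXN3 is high in the 3 inhibitory rows at the top, while CNTNAP2 is lowest in GABAergic row 5 and highest in row 11.

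Over all human nuclei, 5 of the 8 genes were at higher levels in both KO libraries than in both WT libraries: NRXN2, NRXN3, NLGN1, SYT1 and CNTNAP2. NRXN3 stood at 409 and 570 CPM in WT and at 1272 and 1336 in KO, with 994 and 423 in DATG. SYT1 stood at 344 and 427 in WT, 746 and 970 in KO, with 690 and 285 in DATG. DATG replicate 1 lay between the WT and KO ranges for both genes, and replicate 2 lay in the WT range for NRXN3 and below it for SYT1.

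CNTNAP2 was at 492 and 336 CPM in WT and 709 and 634 in KO, against 888 and 228 in DATG. NRXN2 was at 17.1 and 12.0 in WT, 26.8 and 21.9 in KO, with 25.3 and 10.1 in DATG. NLGN1 was at 1015 and 880 in WT, 1194 and 1268 in KO, with 1242 and 408 in DATG. The KO and WT pairs did not overlap for these 3 genes either, and DATG replicate 1 lay within or above the KO range while DATG replicate 2 was the lowest library of the 6.

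The other 3 genes overlapped between KO and WT. NLGN2 was at 28.2 and 28.3 CPM in WT, 27.1 and 30.5 in KO, with 23.3 and 32.9 in DATG. NLGN3 was at 11.2 and 6.70 in WT, 12.5 and 9.65 in KO, with 11.5 and 3.97 in DATG. SYT4 was at 11.5 and 13.6 in WT, 15.1 and 9.47 in KO, with 16 and 17.3 in DATG, where both libraries lay above both WT libraries.

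The share of genes for which both KO libraries were above both WT libraries was 20.5% of the 26247 tested, against 5 of 8 here, and all 8 passed the filter on low counts. EdgeR's quasi-likelihood test over all 6 libraries, with Benjamini-Hochberg adjustment, called none of the 8 and 0% of all genes. At an unadjusted p under 0.05 it counted 2 of the 8, both higher in KO, against 1.18% of all genes higher and 3.67% lower. NRXN3 had a log2 fold change of 1.44 (SE 0.41, edgeR adjusted p = 0.997), and SYT1 1.18 (SE 0.42, adjusted p = 0.999). The other values were 0.76 for NRXN2 (SE 0.42), 0.72 for CNTNAP2 (SE 0.56), 0.41 for NLGN1 (SE 0.46), 0.32 for NLGN3 (SE 0.52), 0.06 for NLGN2 (SE 0.29) and -0.02 for SYT4 (SE 0.32). DESeq2 called none of the 8, with adjusted p = 0.155 for NRXN3, and 3 genes higher (0.0116%) and 142 lower (0.548%) over all genes.

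NRXN3 passed in some fits that left out DATG libraries, and the cause was not tested. The common coefficient of variation was 38.6% with 6 libraries and 24.0% with the WT and KO libraries alone. In that 4-library fit NRXN3 was higher in KO by a log2 fold change of 1.42 with edgeR adjusted p = 0.0364, and 116 genes (0.452%) were called higher and 363 (1.41%) lower. SYT1 missed the threshold there, at 1.17 with edgeR adjusted p = 0.0649. Leaving out DATG replicate 1 gave edgeR adjusted p = 0.0265 for NRXN3, when 0.576% of genes were called higher and 1.71% lower. Leaving out DATG replicate 2 gave edgeR adjusted p = 0.0294, with 0.546% called higher and 1.54% lower.

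**Figure D3:**
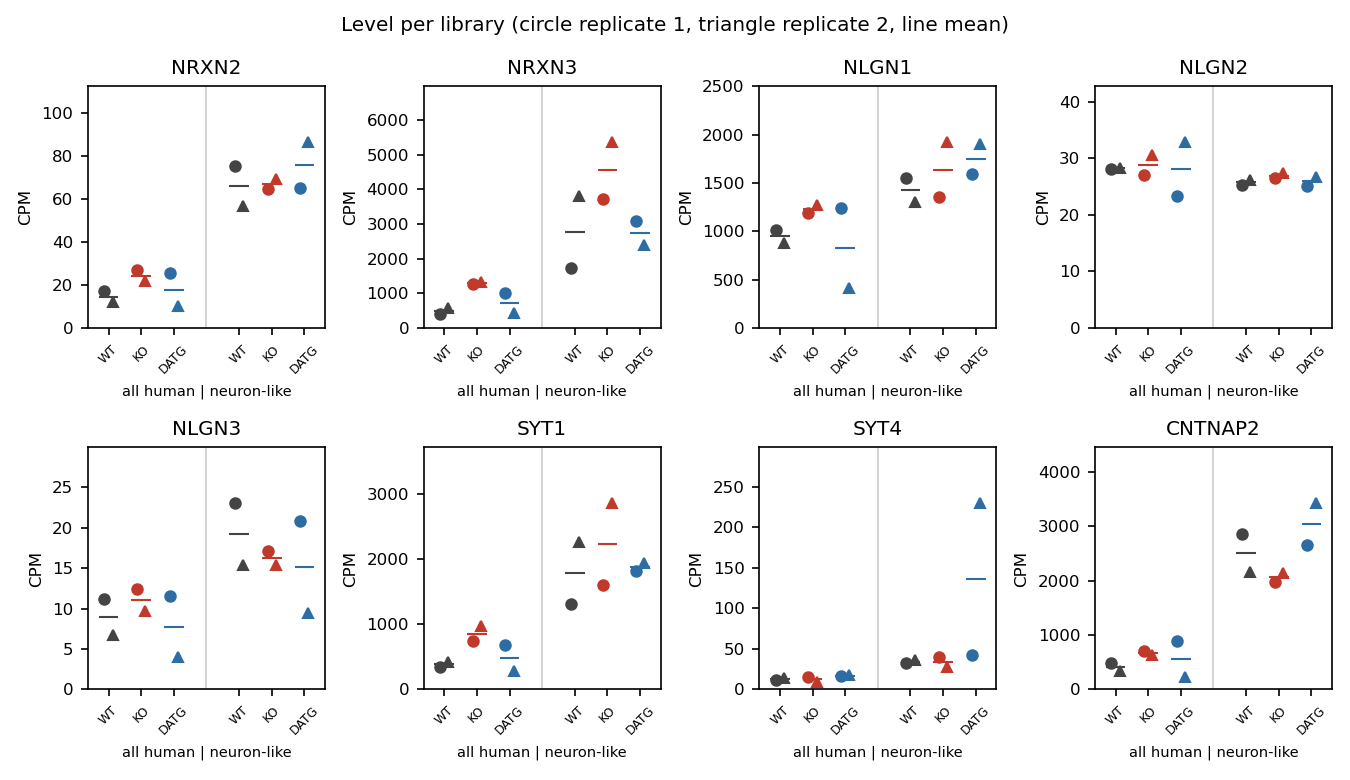
CPM of each gene per library in all human nuclei (left of each panel) and in neuron-like nuclei (right), with circles for replicate 1, triangles for replicate 2 and lines at group means. On the left NRXN3 and SYT1 are higher in both KO libraries than in both WT libraries, and on the right KO and WT overlap for SYT1, NRXN2 and NLGN1.

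The share of neuron-like nuclei moved with these differences: 5.90% ± 2.04 in WT and 16.8% ± 3.44 in KO (n = 2). The NEUROD4/NHLH1 cluster held 2.33% ± 1.14 and 7.34% ± 0.864, and progenitor-like nuclei 10.5% ± 3.50 and 20.8% ± 1.76. In RNA summed over all human nuclei, more cells of a type and more RNA per cell cannot be told apart, so the levels are also given outside and within the neuron-like nuclei. Outside them NRXN3 stood at 346 and 297 CPM in WT and 677 and 653 in KO, and SYT1 at 297 and 271 against 539 and 650. The log2 fold changes without neuron-like nuclei were 1.06 for NRXN3 and 1.08 for SYT1, both at edgeR adjusted p = 0.980. Nuclei outside still included the NEUROD4/NHLH1 cluster and progenitor-like nuclei, whose shares also differed, so the same limit holds for these values.

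Within neuron-like nuclei the KO and WT libraries lay closer together. NRXN3 stood at 1721 and 3795 CPM in WT and 3731 and 5375 in KO, with 3079 and 2383 in DATG, so the lower KO library fell inside the WT range. SYT1 stood at 1315 and 2274 in WT, 1602 and 2861 in KO, with 1822 and 1943 in DATG, again with overlap. CNTNAP2 stood at 2853 and 2149 in WT, 1974 and 2139 in KO, with 2655 and 3419 in DATG: here both KO libraries were just below both WT libraries.

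For the rest, NRXN2 was at 75.2 and 56.5 CPM in WT neuron-like nuclei and 64.8 and 69.4 in KO, and NLGN1 at 1551 and 1307 against 1350 and 1926. NLGN3 was at 23.0 and 15.3 against 17.1 and 15.3, and SYT4 at 32.2 and 35.9 against 39.5 and 27.4. These 4 overlapped. NLGN2 was at 25.3 and 26.2 against 26.4 and 27.4, which do not overlap but differ by little. Both KO libraries were thus above both WT libraries for 1 of 8 genes (13.6% of 17441 tested) and below for 1 of 8 (18.4%).

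EdgeR called 0% of genes in neuron-like nuclei, with 0.826% higher and 1.43% lower at an unadjusted p under 0.05. DESeq2 called 0 higher and 3 lower (0.00948%). Of the 8 genes none was called by either tool, and none had an unadjusted p under 0.05. The log2 fold change was 0.77 for NRXN3 (SE 0.39), 0.36 for SYT1 (SE 0.37), -0.24 for CNTNAP2 (SE 0.27), 0.25 for NLGN1 (SE 0.28), 0.08 for NRXN2 (SE 0.27), 0.10 for NLGN2 (SE 0.28) and -0.18 for NLGN3 (SE 0.40), each at edgeR adjusted p = 1.00. Whether the KO to WT difference itself differs between all human and neuron-like nuclei was not tested.

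**Figure D4:**
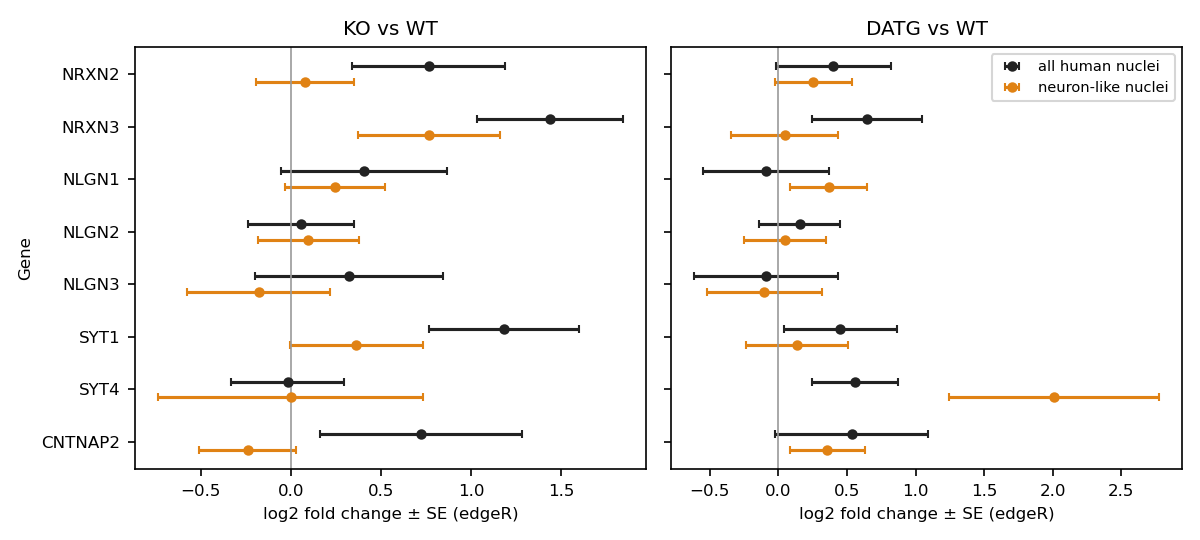
Log2 fold changes with standard errors (edgeR, 6 libraries) of the 8 genes in KO vs WT and DATG vs WT, for all human nuclei (black) and neuron-like nuclei (orange). In KO vs WT the black points of NRXN3 (1.44) and SYT1 (1.18) lie to the right of the orange ones (0.77 and 0.36), and in DATG vs WT the orange point of SYT4 (2.01) lies far to the right.

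The mix of neuronal types moved with NRXN3 too. The 3 inhibitory sub-clusters made up 9.83% and 39.4% of neuron-like nuclei in WT, 29.4% and 41.0% in KO, with 31.5% and 7.88% in DATG. Libraries with few inhibitory nuclei, WT replicate 1 and DATG replicate 2, were those with the lowest NRXN3. Within the inhibitory nuclei NRXN3 stood at 8824 and 8849 CPM in WT, 10420 and 11750 in KO, with 7358 and 20070 in DATG, where WT replicate 1 gave 23 nuclei and DATG replicate 2 only 16. In the other neuron-like nuclei it stood at 1061 and 1194 in WT, 1573 and 1784 in KO, with 1495 and 1073 in DATG. In each set both KO libraries lay above both WT libraries, but not in each sub-cluster: in the glycinergic or spinal inhibitory-like one WT replicate 2 was above both KO libraries. The other nuclei held an unnamed sub-cluster led by RHEX, BOC and GLI3 (344 nuclei), with the glycine transporter gene SLC6A5 at 302 CPM and NRXN3 at 1698 and 4390 CPM in WT and 4589 and 5422 in KO. Without it, a setting chosen after seeing the data, NRXN3 in the other nuclei stood at 779 and 890 in WT and 889 and 1181 in KO, so the groups overlapped. None of these differences was tested.

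DATG teratomas showed no call among the 8 genes against the same WT libraries, and edgeR called 0% of all 26247 genes, with 1.34% higher and 1.56% lower at an unadjusted p under 0.05 (DESeq2 called 25, or 0.102%, higher and 55, or 0.224%, lower). The log2 fold changes over all human nuclei ran from -0.09 for NLGN1 to 0.65 for NRXN3 (SE 0.40), with 0.45 for SYT1, 0.53 for CNTNAP2, 0.40 for NRXN2 and 0.56 for SYT4 (SE 0.32). Both DATG libraries were above both WT libraries for 1 of the 8, SYT4, against 6.83% of all genes. The pair gave opposite signs: without DATG replicate 1 NRXN3 was at -0.02, SYT1 at -0.24, CNTNAP2 at -0.66, NRXN2 at -0.33 and NLGN1 at -1.02, and without DATG replicate 2 they were at 1.07, 0.89, 1.16, 0.85 and 0.44. The share of neuron-like nuclei, 17.4% in DATG replicate 1 and 3.63% in replicate 2, moved with these values, and its part in them was not tested.

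NLGN1 in DATG replicate 2 was also low outside neurons. At 361 CPM outside neuron-like nuclei it compared with 1159 in DATG replicate 1, 989 and 844 in WT, and 1156 in both KO libraries. Within neuron-like nuclei of DATG replicate 2 it was at 1904, beside 1594 in replicate 1, so the low library there was among the highest.

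The comparison of DATG with KO uses the same DATG libraries. In it NRXN3 was at -0.79 (SE 0.40, edgeR adjusted p = 0.696) and SYT1 at -0.73 (SE 0.41, adjusted p = 0.696) in DATG over all human nuclei. EdgeR called 0% of genes, with 4.05% higher and 1.64% lower at an unadjusted p under 0.05. DESeq2 called 52 higher (0.218%) and 20 lower (0.0838%). Without DATG replicate 1, edgeR gave -1.43 for NRXN3 (adjusted p = 0.0135) and -1.41 for SYT1 (adjusted p = 0.0166), when 2394 genes (8.78%) were called higher and 3905 (14.3%) lower over all genes, and the single DATG library left was assumed to vary as the other groups do. Without DATG replicate 2 they were at -0.34 (edgeR adjusted p = 0.986) and -0.27 (adjusted p = 0.996), and edgeR called 3 genes higher (0.011%) and 0% lower. In neuron-like nuclei edgeR called 0% of genes in this comparison and none of the 8. At an unadjusted p under 0.05 it counted 1 of the 8, higher in DATG, against 1.1% of all genes higher and 0.596% lower. In these nuclei DESeq2 called 1 gene higher (0.00316%) and 2 lower (0.00632%), none of them among the 8.

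SYT4 was the gene that stood out in DATG neurons, in 1 library. In neuron-like nuclei it was at 32.2 and 35.9 CPM in WT, 39.5 and 27.4 in KO, with 42.3 and 230 in DATG. DATG replicate 1 was thus just above the other groups, and replicate 2, with 203 neuron-like nuclei, far above. The log2 fold change against WT was 2.01 (SE 0.77, edgeR adjusted p = 1.00), with 0.32 without DATG replicate 2 and 2.90 without replicate 1. Over all genes in neuron-like nuclei edgeR called 0%, with 1.14% higher and 0.757% lower at an unadjusted p under 0.05 (DESeq2 called 2, or 0.00632%, higher and 3, or 0.00948%, lower). SYT4 was the 1 of the 8 at that level. Both DATG libraries were above both WT libraries for 2 of the 8, SYT4 and NLGN1, against 9.13% of genes.

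A shallow sub-cluster, at a median of 1670 UMIs and led by LINC01440, the heat shock genes HSPA1A, HSPA1B and HSPH1 and the glycolytic gene HK2, had SYT4 at a mean of 124 ± 114 CPM (n = 6 libraries), the highest of the 13. Without DATG replicate 2 that mean was 79.9 ± 43.4, below the 88.1 ± 33.4 of a cholinergic or motor-like sub-cluster led by TBX20 and SLC5A7. The HSPA1A/HK2 sub-cluster held 48.3% of neuron-like nuclei in DATG replicate 2, against 6% in DATG replicate 1, 17.1% and 18.3% in WT and 2.76% and 7.07% in KO. SYT4 stood there at 118 and 95.5 CPM in WT, 118 and 40.0 in KO, with 27.5 and 343 in DATG. In the other neuron-like nuclei it stood at 24.3 and 26.6 in WT, 38.0 and 26.8 in KO, with 42.7 and 152 in DATG, so DATG replicate 2 was the highest library in both sets. That rests on 89 and 57 SYT4 UMIs.

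Stress genes in neuron-like nuclei of DATG replicate 2 did not move together. HK2 was at 67.7 CPM against 9.97 to 28.6 in the other libraries, and the hypoxia-responsive growth factor gene VEGFA at 200 against 19.0 to 66.2. FOS, an activity and stress gene, was at 17.3 (11 UMIs) against 0 to 9.12. The heat shock gene HSPA1A was lowest there, at 1.57 (1 UMI), against 7.67 to 158. HSPA1A therefore does not mark the nuclei of this library in the HSPA1A/HK2 sub-cluster. The part of these in the SYT4 level was not tested.

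**Figure D5:**
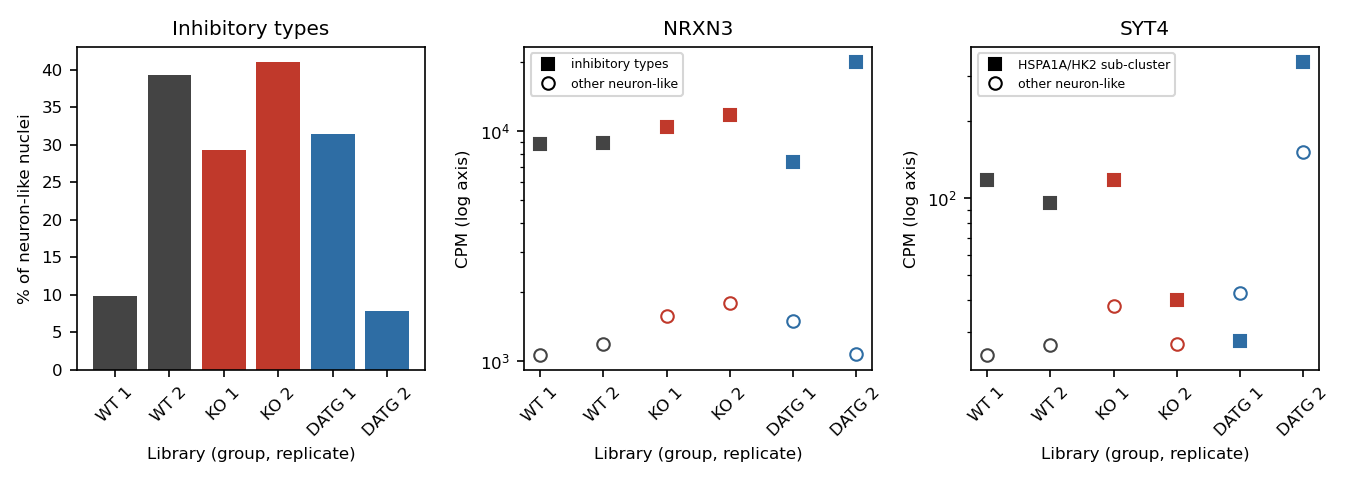
Share of the 3 inhibitory sub-clusters among neuron-like nuclei (left), NRXN3 in inhibitory (squares) and other neuron-like nuclei (circles, middle), and SYT4 in the HSPA1A/HK2 sub-cluster (squares) and other neuron-like nuclei (circles, right), per library, with log axes for CPM. NRXN3 is 7358 to 20070 CPM in inhibitory and 1061 to 1784 CPM in other nuclei, and DATG replicate 2 is the highest library for SYT4 in both sets.

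Other synapse genes were read from 6 lists in KO vs WT over all human nuclei, where the median log2 fold change of all genes was 0.01 and edgeR with 6 libraries called none of the listed genes. Of the adhesion partners of neurexins and neuroligins 23 were tested, with a median of 0.64. Both KO libraries were above both WT libraries for 14 of them, against 20.5% of all genes, which is the background for the like counts of the other lists too. CLSTN2, a calsyntenin, was at 83.4 and 67.3 CPM in WT and 141 and 145 in KO (log2 fold change 0.95, SE 0.21). The postsynaptic neurexin ligand LRRTM4 was at 284 and 237 against 550 and 471 (0.99, SE 0.25), and LRRTM3 at 53.5 and 53.0 against 89.2 and 84.2 (0.73, SE 0.21). None of these 3 passed in the 4-library fit (edgeR adjusted p = 0.0674, 0.0567 and 0.105).

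For other synaptic adhesion genes the median was 0.39, and 13 of 30 were above WT in both KO libraries, led by the receptor phosphatase PTPRD (0.86), CADM1 (0.68) and SLITRK1 (1.34). The contactin and CASPR family, kin of CNTNAP2, had a median of 0.44, with 4 of 13 above WT in both. CNTNAP5 was at 85.5 and 65.5 CPM in WT, 216 and 168 in KO, with 169 and 63.5 in DATG, and passed in the 4-library fit (1.34, edgeR adjusted p = 0.0323). CNTNAP4 (0.63) and CNTN1 (0.69) did not pass in that fit.

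Vesicle release genes had a median of 0.43, and 22 of 35 were above WT in both KO libraries. The synaptic vesicle protein SV2C was at 21.8 and 20.9 CPM in WT and 55.9 and 45.1 in KO, and passed in the 4-library fit (1.24, edgeR adjusted p = 0.0342). Its relative SV2B went the other way, at 24.1 and 11.9 in WT and 4.14 and 5.06 in KO (-1.93, SE 0.43), and DESeq2 called it lower (adjusted p = 0.0209). SV2B was also low in both DATG libraries, at 3.59 and 3.44 CPM (-2.20 against WT, DESeq2 adjusted p = 0.0047). The active zone organiser RIMS1 was at 0.78. Other synaptotagmins had a median of 0.18, with 8 of 15 above WT in both, among them SYT16 (1.01) and SYT13 (0.91), while SYT8 was lower (-1.76). Scaffolds had a median of 0.21 and 10 of 25 above WT in both, with DLGAP2 at 0.58, HOMER1 at 0.46 and IQSEC2 at -0.75. In DATG vs WT over all human nuclei the medians were 0.44 for adhesion partners, 0.42 for other adhesion genes and 0.59 for contactins and CASPR genes. Release genes were at 0.29, synaptotagmins at 0.24 and scaffolds at 0.11, against 0.03 for all genes. Medians above that of all genes were thus not particular to KO.

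Within neuron-like nuclei the medians of these lists in KO vs WT were 0.30 for adhesion partners, 0.15 for other adhesion genes, 0.10 for contactins and CASPR genes, 0.03 for synaptotagmins, 0.06 for release genes and 0.02 for scaffolds, with none called by edgeR. Both KO libraries were above both WT libraries for 8 of 21, 6 of 30, 1 of 12, 0 of 13, 2 of 34 and 1 of 25 of them, in the same order, against 13.6% of all genes tested in neuron-like nuclei.

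Genes with the most similar pattern were taken as those with the highest Pearson correlation of log2(CPM + 1) over the 28 human clusters, which share libraries and differ in depth, among 12948 genes. They were the synaptic scaffold gene ANKS1B for NRXN3 (r = 0.83), the endocytic coat gene SNAP91 for SYT1 (0.94) and FSTL5 for CNTNAP2 (0.84). For NLGN1 it was TPTE2 (0.90), for NLGN3 its relative NLGN4X (0.92), for NLGN2 the GABA-B receptor gene GABBR1 (0.84) and for SYT4 TMEM145 (0.84).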

How the data were processed

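Nuclei were isolated from frozen tumours on a Singulator and made into 10x Genomics 3' v3.1 libraries, per the labels' protocols. The authors deposited raw UMI counts for every gene and barcode of a library, on a joint human and mouse reference. The submitters' processing notes name Cell Ranger 8.0.1 and the matrix headers 8.0.0. The sources used here do not say how introns and strand were treated. Human genes carry a GRCh38 prefix. Positions come from GENCODE 29 on GRCh38, by gene identifier.

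Barcodes with at least 500 UMIs, 300 genes and 90% human UMIs were kept. Nuclei most like simulated doublets were removed at 0.8% per 1000 barcodes, 5.20% to 10.8% of human nuclei per library. Clusters came from 2000 variable genes, without the 8 genes and mitochondrial genes, 30 principal components and Leiden clustering at resolution 1 (scanpy 1.11.5), and neuron-like nuclei were split again at resolution 0.6. Clusters were named from marker lists when at least 3 markers were at least 2-fold higher, at 20 CPM or more. Details of this naming, such as leaving clusters unnamed where another list fitted as well or leading genes went against the name, were set after the clusters were seen. No annotation by the authors was used, so shares may differ from the study's.

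UMIs were summed per library and tested with edgeR 4.0.16 (robust quasi-likelihood F test, TMM scaling, default filter, 1 mean per group, all 6 libraries, Benjamini-Hochberg adjusted p under 0.05), since nuclei are not replicates. DESeq2 1.42.0 and other settings were alternatives. CPM values are scaled to the human UMIs of the nuclei named. The scripts were tested on simulated data. The genes and lists were chosen with earlier results of these data known. Named beyond the 8 genes were the 3 of each list with the smallest unadjusted p in KO vs WT, and the gene with the most similar pattern to each of the 8, of which some results are not reported here. Stress genes, and leading genes of clusters, were named after their values were seen.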

Additional observations from a re-analysis of the deposited data

How the results depend on the processing

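Over all human nuclei the number of genes called by edgeR in KO vs WT, 0 as reported, was 479 with only the 4 libraries compared, 145 with DESeq2 and 0 to 624 with 1 library left out (624 without DATG replicate 1, 569 without DATG replicate 2). DATG vs WT gave 80 with DESeq2 and 0 to 2112 with 1 left out, and DATG vs KO 72 and 0 to 6299. In neuron-like nuclei KO vs WT gave 3 with DESeq2 and 39 with no filter, DATG vs WT 5 and 49, and DATG vs KO 3 and 31, with 0 to 18 when 1 library was left out. The cause was not tested. A left-out library leaves a group with 1 sample, assumed to vary like the others.

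With 1 library left out, KO vs WT over all human nuclei ran from -0.10 to 0.20 for NLGN2 and -0.32 to 0.23 for SYT4. NRXN3 (1.20 to 1.72), SYT1 (0.91 to 1.42), NRXN2 (0.55 to 1.01), CNTNAP2 (0.49 to 1.00), NLGN1 (0.30 to 0.51) and NLGN3 (0.01 to 0.72) kept their direction. DATG vs WT ran from -0.33 to 0.85 for NRXN2, -0.0151 to 1.07 for NRXN3, -1.02 to 0.44 for NLGN1, -0.23 to 0.41 for NLGN2, -0.98 to 0.42 for NLGN3, -0.24 to 0.89 for SYT1 and -0.66 to 1.16 for CNTNAP2. In neuron-like nuclei KO vs WT ran from -0.10 to 0.28 for NRXN2, -0.0924 to 0.52 for NLGN1, -0.45 to 0.11 for NLGN3, -0.18 to 0.84 for SYT1 and -0.23 to 0.20 for SYT4, while NRXN3 kept its direction (0.30 to 1.47). DATG vs WT there ran from -0.43 to 0.74 for NRXN3, -0.0265 to 0.21 for NLGN2, -0.83 to 0.18 for NLGN3 and -0.23 to 0.60 for SYT1.

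SYT4 in KO vs WT neuron-like nuclei, at -0.001, turned to 0.0187 with DESeq2, 0.0126 with RLE scaling, 0.0308 with no filter, 0.00511 with nuclei of at least 1000 UMIs and 0.39 without the sub-clusters led by heat shock and progenitor genes. NLGN2 turned to -0.0205 at Leiden resolution 2 and -0.0124 with the NEUROD4/NHLH1 cluster, where NRXN2 was at -0.0273. In DATG vs WT, NLGN2 turned to -0.12 at resolution 2 and -0.19 with that cluster, and NLGN3 to 0.0515 without the 2 sub-clusters. The settings on these clusters, and leaving out neuron-like nuclei, were chosen after seeing the data.

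Deviations of samples with the same replicate number correlated at 0.11 (WT with KO), -0.14 (WT with DATG) and 0.35 (KO with DATG) over all human nuclei. In neuron-like nuclei the correlations were -0.14, -0.26 and 0.34 in the same order. Libraries were therefore not treated as pairs, but these values cannot tell whether some libraries, such as those of KO and DATG, shared a batch. With a replicate block the counts of calls stayed at 0, and SYT4 in KO vs WT neuron-like nuclei turned to 0.11. Low levels limit NLGN3, with 68 to 173 UMIs per group in neuron-like nuclei.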
